A study of Mus musculus with 9 samples.

Results

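Sinusoidal endothelial transcripts are a list of 31 genes known as markers or products of the endothelium that lines the blood channels of the liver lobule, taken by symbol from the 23337 genes of the deposited count tables. All 31 were found, and all 31 passed the filter on low counts that left 12587 genes for testing. The list includes 4 secreted ligands of the Wnt and BMP pathways, Wnt2, Wnt9b, Rspo3 and Bmp2. RNA from the liver of wild-type mice, dissected in the fed state, was sequenced in 9 libraries, 3 on each diet. The diets were a normal diet (ND), a 60% high-fat diet (HFD) and the 60% high-fat diet with 0.25% hyodeoxycholic acid, a secondary bile acid (HFD_HDCA). Each diet began at 8 weeks of age and lasted 12 weeks. The labels give no strain, sex, cage or litter and do not say that each library is a separate mouse, so the p-values measure only the spread between these samples.

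Liver sinusoidal endothelial cells are fenestrated cells without an organised basement membrane. Their scavenger receptors, stabilin-1, stabilin-2, the mannose receptor and Fcγ receptor IIb, clear waste macromolecules and small immune complexes from the blood. Endothelial cells near the central vein also secrete WNT2, WNT9B and the R-spondin RSPO3, which keep a Wnt programme active in the neighbouring pericentral hepatocytes. BMP2 and BMP6 from the same endothelium signal to hepatocytes to induce hepcidin, the iron-regulating hormone.

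Reads assigned to genes ran from 16994353 to 20509203 per library. At this depth the limit allowed by a count of 0, set at 3 counts, lay between 0.152 and 0.182 CPM (counts scaled to a common TMM-adjusted library size), for counting error only. The member with the fewest reads was Wnt9b, with 261 over all 9 libraries and 8 in the lowest. Scaled by transcript length, the ND level was highest for Clec4g, at 44.9 ± 4.47 FPKM (SD, n = 3), followed by Fcgr2b at 31.6 ± 1.79 and Ehd3 at 23.2 ± 0.568. Wnt9b was lowest at 0.371 ± 0.0337 FPKM, below Flt1 at 1.52 ± 0.0735. Neighbours in this order often differed by less than their spread, as did Oit3 at 11.7 ± 1.11 and Gpr182 at 11.7 ± 0.311 FPKM. Every member, the defining sinusoidal markers included, had reads in every library. So did 17 of 21 markers of continuous and large-vessel endothelium, Cd34, Vwf and Plvap among them, and the other 4, Sele, Ccl21a, Pdpn and Sema3g, were at 0 reads in at least 1 library. Some members are also expressed outside endothelium, such as Mrc1, Lyve1 and Fcgr2b in macrophages and Gata4 in other liver cells.

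Promoter sequences were matched by symbol for 18 of the 31 members in RefSeq (GRCm38.p6), and the 250 bases before the start were searched for short strings bound by factors of endothelial gene regulation. The 5 shown were chosen after the expression values were seen, 2 for genes with every HFD_HDCA library below every ND library (Tie1, Eng), 2 for genes with every HFD_HDCA library above every HFD library (Clec4g, Nrp1) and 1 for a Wnt ligand (Wnt2). None of these differences passed the test in edgeR's fit of all libraries. Capitals mark every match, on either strand, to 4 strings of ETS factors, which overlap each other, 2 of GATA factors and 1 of SOX factors, each spelled out after the sequences. The windows lie at chr4:118489850-118490099 (Tie1, minus strand), chr2:32646345-32646594 (Eng, plus), chr8:3720652-3720901 (Clec4g, minus), chr8:128358823-128359072 (Nrp1, plus) and chr6:18030446-18030695 (Wnt2, minus).
Tie1: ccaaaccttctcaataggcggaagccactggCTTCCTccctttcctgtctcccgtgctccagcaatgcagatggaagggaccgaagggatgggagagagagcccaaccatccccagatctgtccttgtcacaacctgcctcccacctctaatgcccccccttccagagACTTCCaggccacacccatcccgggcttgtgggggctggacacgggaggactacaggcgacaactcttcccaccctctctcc
Eng: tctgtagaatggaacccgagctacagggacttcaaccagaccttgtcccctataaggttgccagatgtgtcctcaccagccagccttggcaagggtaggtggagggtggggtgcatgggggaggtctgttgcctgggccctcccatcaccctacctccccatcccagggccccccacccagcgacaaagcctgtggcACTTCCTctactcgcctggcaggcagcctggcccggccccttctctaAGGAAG
Clec4g: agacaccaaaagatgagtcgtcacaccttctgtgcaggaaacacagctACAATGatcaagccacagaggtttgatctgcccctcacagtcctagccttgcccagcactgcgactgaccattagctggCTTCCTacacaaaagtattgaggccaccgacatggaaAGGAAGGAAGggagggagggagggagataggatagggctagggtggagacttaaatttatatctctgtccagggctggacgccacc
Nrp1: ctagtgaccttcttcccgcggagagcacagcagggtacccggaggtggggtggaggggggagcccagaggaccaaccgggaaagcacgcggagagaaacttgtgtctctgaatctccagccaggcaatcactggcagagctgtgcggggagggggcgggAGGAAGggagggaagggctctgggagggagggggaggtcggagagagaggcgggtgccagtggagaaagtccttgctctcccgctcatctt
Wnt2: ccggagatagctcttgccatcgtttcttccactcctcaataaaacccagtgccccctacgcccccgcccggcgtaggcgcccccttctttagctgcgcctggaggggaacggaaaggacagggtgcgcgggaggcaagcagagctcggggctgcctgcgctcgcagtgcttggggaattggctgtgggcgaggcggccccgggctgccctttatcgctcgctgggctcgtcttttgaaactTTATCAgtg
The ETS string AGGAAG occurred in 10 of the 18 matched members, Clec4g, Egfl7, Emcn, Eng, Flt1, Mrc1, Nrp1, Stab1, Stab2 and Tie1. It occurred in 32.3% of all RefSeq genes, counted as for the members when any window of the gene held it. The ETS string GGAAGT occurred in 7 of the 18 (22.2% of genes), the longer form AGGAAGT in 4 (8.8%) and the form CAGGAAG in 4 (12.1%). The GATA string TGATAA was present in 2, Egfl7 and Wnt2 (9.2%), and the other GATA string, AGATAA, in 0 (11.4% of genes). The SOX string ACAATG was present in 1, Clec4g (12.2%). AGGAAG stood in the windows of members with lower and of members with higher mean levels in HFD_HDCA than in ND, and a match describes letters only.

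On HFD most endothelial transcripts had lower mean levels than on ND, but none of the 31 passed the test. Their median log2 fold change was -0.34, against 0.02 over all genes tested, and 27 of 31 values were negative. By edgeR's quasi-likelihood test 0 of 31 were called at an adjusted p under 0.05, against 0.953% of all genes. At an unadjusted p under 0.05 there were 6 lower members, Tie1, Nrp1, Ehd3, Bmp2, Ptprb and Dnase1l3 (background 4.83%), and 0 higher (6.67%). The 3 HFD libraries lay below all ND libraries for 6 members, Tie1, Nrp1, Ehd3, Wnt9b, Ptprb and Dnase1l3 (9.20% of all genes), and above them for 0 (10.9%). Leaving out 1 library, the lower members at an unadjusted p under 0.05 numbered from 2 (without ND 1, 3.42% of all genes) to 13 (without HFD 3, 4.47%). There were 3 without ND 2 (3.41%). DESeq2 called 0 members, against 3.0% of all genes, with 7 lower (5.27%) and 0 higher (5.97%) at an unadjusted p under 0.05. From the FPKM tables limma called 0 members in each of the 3 comparisons, against 1.36, 4.07 and 5.80% of all genes. In bulk tissue, fewer endothelial cells and less of these RNAs per cell cannot be told apart.

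With HDCA added to the HFD, 15 of the 31 members had a negative log2 fold change against HFD alone and 16 a positive one, and none passed the test. The median was 0.00, against 0.00 over all genes, and it depended on the HFD libraries, at -0.18 without HFD 2 and 0.19 without HFD 3. By edgeR 0 of 31 were called (3.40% of all genes). At an unadjusted p under 0.05 there were 3 higher members, Clec4g, Fcgr2b and Nrp1 (11.6%), and 0 lower (10.4%). The same 3 had HFD_HDCA libraries above every HFD library (11.3% of all genes), and 0 had them below (11.1%). These shares of the members, 9.68% higher and 0 lower, did not exceed the background. DESeq2 called 1 member, Nrp1, against 8.55% of all genes, with 3 higher (11.2%) and 0 lower (10%) at an unadjusted p under 0.05. This comparison and that of HFD with ND share the HFD libraries.

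Against ND, 24 of 31 members had a negative log2 fold change in the HFD_HDCA libraries, and none passed the test. The median was -0.30, against 0.03 over all genes. By edgeR 0 of 31 were called (6.47% of all genes). At an unadjusted p under 0.05 there were 10 lower members, Stab1, Stab2, Tie1, Eng, Flt1, Ehd3, Bmp2, Wnt9b, Ptprb and Dnase1l3 (11.4%), and 2 higher, Clec4g and Egfl7 (14.8%). All HFD_HDCA libraries lay below all ND libraries for 16 members, the 10 above with Cdh5, Tek, Oit3, Gpr182, Esam and F8 (16.1% of all genes). They lay above for 3, Clec4g, Fcgr2b and Egfl7 (17.8%). Leaving out 1 library, the lower members at an unadjusted p under 0.05 numbered from 1 (without ND 1, 7.76% of all genes, or ND 2, 8.40%) to 16 (without HFD 2, 11.5%). There were 2 without HFD_HDCA 1 (10.1%) or HFD_HDCA 3 (9.29%), and 6 without HFD_HDCA 2 (12.0%). DESeq2 called 0 members, against 11.1% of all genes, with 12 lower (12.1%) and 0 higher (13.3%) at an unadjusted p under 0.05. Fitting only ND and HFD_HDCA, edgeR called 7 members lower, Stab1, Stab2, Cdh5, Eng, Oit3, Flt1 and Ptprb, against 3.85% of all genes in that fit. This comparison and that of HFD with ND share the ND libraries.

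**Figure D1:**
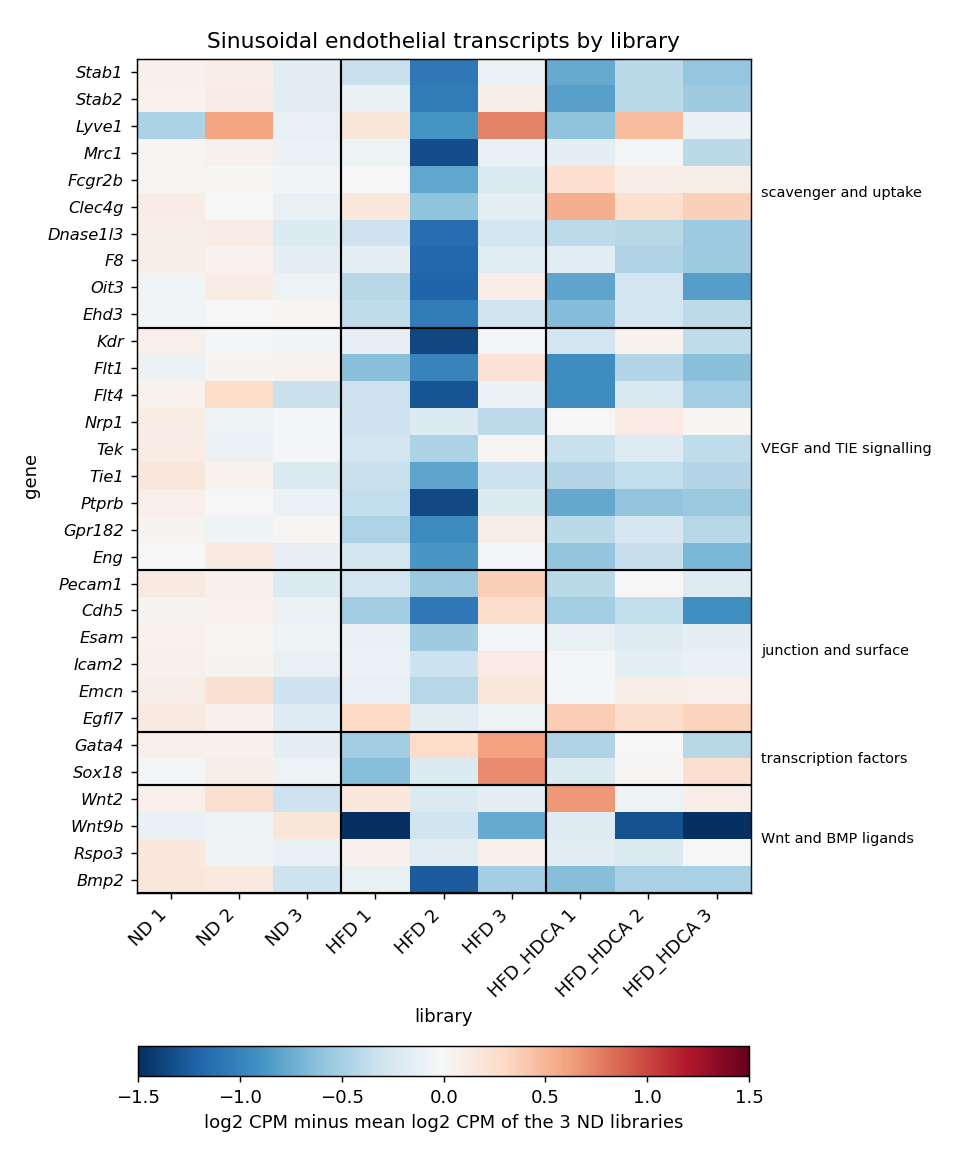
Each row is a member, grouped by role, and each column a library; the colour gives log2 CPM minus the mean log2 CPM of the 3 ND libraries, limited to 1.5 either way. HFD 2 is the darkest blue column, and Clec4g, Fcgr2b and Egfl7 are red in all 3 HFD_HDCA libraries.

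HFD 2 stood apart from the other HFD libraries. It had the lowest level of all 9 libraries for 24 of 31 members and the lowest of the HFD libraries for 27, all but Nrp1, Wnt9b, Gata4 and Sox18. Its median log2 difference from the ND mean was -0.88, against -0.28 in HFD 1 and -0.03 in HFD 3. The summed level of the 31 members was 1350, 1348 and 1212 CPM in ND 1 to 3, 1111, 714.7 and 1224 CPM in HFD 1 to 3, and 1039, 1146 and 1032 CPM in HFD_HDCA 1 to 3. The ND and HFD_HDCA sums did not overlap, whereas HFD 3 lay within the range of ND. The median ratio of the highest to the lowest library was 1.17 in ND, 1.98 in HFD and 1.27 in HFD_HDCA. For HFD against ND the median log2 fold change was -0.10 without HFD 2 and -0.55 without HFD 3. Counts without a library were added after the values were seen. Without HFD 2 the same 6 members had HFD below ND (14.2% of all genes), and 0 had it above (16.0%). In HFD_HDCA against HFD, 8 members, Stab1, Stab2, Tie1, Eng, Rspo3, Ptprb, Dnase1l3 and Esam, then lay lower (15.6% of all genes) and 3, Clec4g, Fcgr2b and Nrp1, higher (15.1%). Without HFD 1, 11 members lay lower in HFD than in ND, among them Clec4g, Fcgr2b and Mrc1 (18.2%), and 1, Gata4, higher (20.7%). Against that smaller HFD group, HFD_HDCA lay higher for 5 members (19.3%) and lower for Gata4 (19.8%). In the fit without HFD 2, edgeR called 5 members lower on HFD_HDCA than on ND, Stab1, Stab2, Eng, Ptprb and Dnase1l3, against 2.88% of all genes. Without HFD_HDCA 1, the same 16 members had HFD_HDCA below ND (21.8% of all genes) and the same 3 above (23.6%).

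Marker lists of other liver cells also varied, between diets and in HFD 2. The summed level of 16 Kupffer cell and macrophage markers was 731.8, 241.9 and 1324 CPM in HFD 1 to 3, against 655.9 to 772.5 in ND and 583.8 to 1073 in HFD_HDCA, with no marker at 0 in any library. Emr1, encoding F4/80 and chosen after its values were seen, stood at 26.5, 6.72 and 112 CPM in HFD 1 to 3. The markers went both ways in HFD 3. Marco was at 228.5 CPM there, against 7.75 to 15.5 in ND. Clec4f and Cd163, at 78.1 and 6.15 CPM in HFD 3, lay below their ND ranges of 119.1 to 136.5 and 28.5 to 29.9. Of these 16 markers 1, the monocyte chemokine receptor Ccr2, rose in HFD_HDCA against ND (adjusted p = 0.0498, edgeR), against 6.47% of all genes called. Its levels were 1.09 ± 0.321 CPM in ND and 2.85 ± 0.869 in HFD_HDCA. The call was kept in 7 of 19 alternatives and lost without any 1 ND library, HFD 3, HFD_HDCA 1 or HFD_HDCA 3. The sum of 6 hepatocyte markers ranged from 80690 to 88670 CPM in ND, 97220 to 116800 in HFD and 100400 to 115300 in HFD_HDCA, most of it albumin, with means of 64740, 88160 and 84070 CPM.

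The other hepatocyte markers went both ways. Ttr had means of 6554, 8081 and 8019 CPM in ND, HFD and HFD_HDCA, and Apoa1 of 6419, 6747 and 8766. Serpina1c was at 2431, 2281 and 2586 CPM in the same order. At an unadjusted p under 0.05 by edgeR, 3 of the 6 were higher in HFD_HDCA against ND (14.8% of all genes). By that limit 2 were lower (11.4%). Cps1, the entry enzyme of the urea cycle, had means of 3237 ± 371.3, 2292 ± 353.0 and 1500 ± 261.7 CPM in ND, HFD and HFD_HDCA, and Tat, tyrosine aminotransferase, of 2540 ± 151.3, 1502 ± 844.2 and 759.4 ± 29.4 (SD, n = 3 each). Both fell in HFD_HDCA against ND (adjusted p = 0.00619 and 0.0146, edgeR), and the call of Tat was lost without ND 1, HFD_HDCA 1 or HFD_HDCA 3. The 15 stellate cell and fibroblast markers summed to 560.4 to 625.3, 620.0 to 673.5 and 505.9 to 666.3 CPM in ND, HFD and HFD_HDCA. Single markers, chosen after their values were seen, differed from that sum. Acta2, Col1a1 and Col3a1 were highest in HFD 2, at 38.4, 19.0 and 91.1 CPM. The next highest library was HFD_HDCA 1, at 14.1, 13.7 and 62.0 CPM. Lrat went the other way and was lowest in HFD 2, at 15.2 CPM. Markers of 3 immune types were at low levels. The B cell sum was 3.53 to 5.31, 2.73 to 6.04 and 6.44 to 10.2 CPM in the same order, with Pax5 at 0 in at least 1 library. The sum for T, NK and NKT cells was 3.25 to 5.84, 2.87 to 3.79 and 5.42 to 6.06 CPM, with Cd3e, Cd8a and Gzma at 0 in at least 1 library. The neutrophil sum was 3.58 to 4.16, 1.77 to 6.77 and 4.27 to 16.7 CPM, and the cholangiocyte sum 45.5 to 53.8, 46.8 to 85.3 and 54.3 to 119.5 CPM, both highest in HFD_HDCA 1. In these 5 lists edgeR called 0 markers in each comparison, with at most 3 in a list at an unadjusted p under 0.05. Over all genes 0.953, 3.40 and 6.47% were called in HFD against ND, HFD_HDCA against HFD and HFD_HDCA against ND. The part of these cells in the endothelial values was not tested.

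The scavenger receptors and other uptake genes made up the largest role group. Stab1, encoding the clearance receptor stabilin-1 (chromosome 14, 31139017 to 31168641, mm10), stood at 67.5, 69.3 and 57.5 CPM in ND, 51.3, 30.6 and 60.7 in HFD, and 38.3, 48.9 and 43.0 in HFD_HDCA. The HFD_HDCA libraries lay below all ND libraries, and HFD spanned both. The log2 fold change of HFD_HDCA against ND was -0.58 ± 0.22 (SE), with an adjusted p of 0.127 by edgeR. Stab2, its hyaluronan-binding relative (chromosome 10, 86841210 to 87007942), stood at 77.9, 81.5 and 67.2 CPM in ND, 70.5, 36.5 and 80.1 in HFD, and 42.9, 57.1 and 52.2 in HFD_HDCA. HFD_HDCA was again below ND without overlap, at -0.57 ± 0.25 on the log2 scale (adjusted p = 0.18, edgeR).

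Clec4g and Fcgr2b, the members with the highest FPKM, went the other way with HDCA. Clec4g, encoding the C-type lectin LSECtin (chromosome 8, 3716071 to 3720651), stood at 76.1, 70.0 and 65.4 CPM in ND, 79.2, 46.5 and 64.0 in HFD, and 102.6, 83.5 and 90.4 in HFD_HDCA. Every HFD_HDCA library was above every other library. The log2 fold change was 0.54 ± 0.17 against HFD (adjusted p = 0.109, edgeR) and 0.39 ± 0.17 against ND (adjusted p = 0.188). Fcgr2b, encoding the inhibitory Fc receptor that takes up small immune complexes, stood at 56.1, 55.8 and 53.8 CPM in ND, 55.0, 32.2 and 47.9 in HFD, and 66.0, 59.0 and 58.5 in HFD_HDCA. HFD_HDCA lay above both other groups without overlap. The log2 fold change was 0.44 ± 0.17 against HFD (adjusted p = 0.16, edgeR) and only 0.15 ± 0.17 against ND (adjusted p = 0.605). In HFD_HDCA against HFD, Clec4g was called in 2 of 19 alternative fits, with adjusted p from 0.0295 to 0.312. Fcgr2b was called in 0 of 19, with adjusted p from 0.0555 to 0.387.

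Mrc1, encoding the mannose receptor, overlapped between all groups, at 72.2 ± 3.92 CPM in ND, 54.7 ± 22.4 in HFD and 63.8 ± 8.32 in HFD_HDCA (SD, n = 3 each). Lyve1, a hyaluronan receptor, had the widest spread within ND, with 6.77, 14.2 and 8.68 CPM, and its groups overlapped. Dnase1l3, a secreted nuclease that degrades chromatin, stood at 93.9, 94.9 and 76.5 CPM in ND, 70.7, 40.0 and 72.5 in HFD, and 67.1, 66.1 and 60.2 in HFD_HDCA. Both high-fat groups lay below ND without overlap, at log2 fold changes of -0.53 ± 0.20 for HFD and -0.46 ± 0.20 for HFD_HDCA (adjusted p = 0.325 and 0.179, edgeR). Ehd3, an endocytic recycling gene, stood at 112.0, 115.2 and 117.8 CPM in ND, 88.2, 55.4 and 93.8 in HFD, and 73.4, 94.2 and 87.3 in HFD_HDCA. It too was below ND in all 6 libraries of the other groups, at -0.54 ± 0.18 and -0.44 ± 0.18 on the log2 scale (adjusted p = 0.253 and 0.157). F8, coagulation factor VIII, lay between 29.3 and 34.7 CPM in ND and between 22.4 and 29.2 in HFD_HDCA. Oit3, a secreted zona pellucida domain protein, ranged from 41.1 to 46.8 CPM in ND, 18.9 to 46.3 in HFD and 24.4 to 35.3 in HFD_HDCA.

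**Figure D2:**
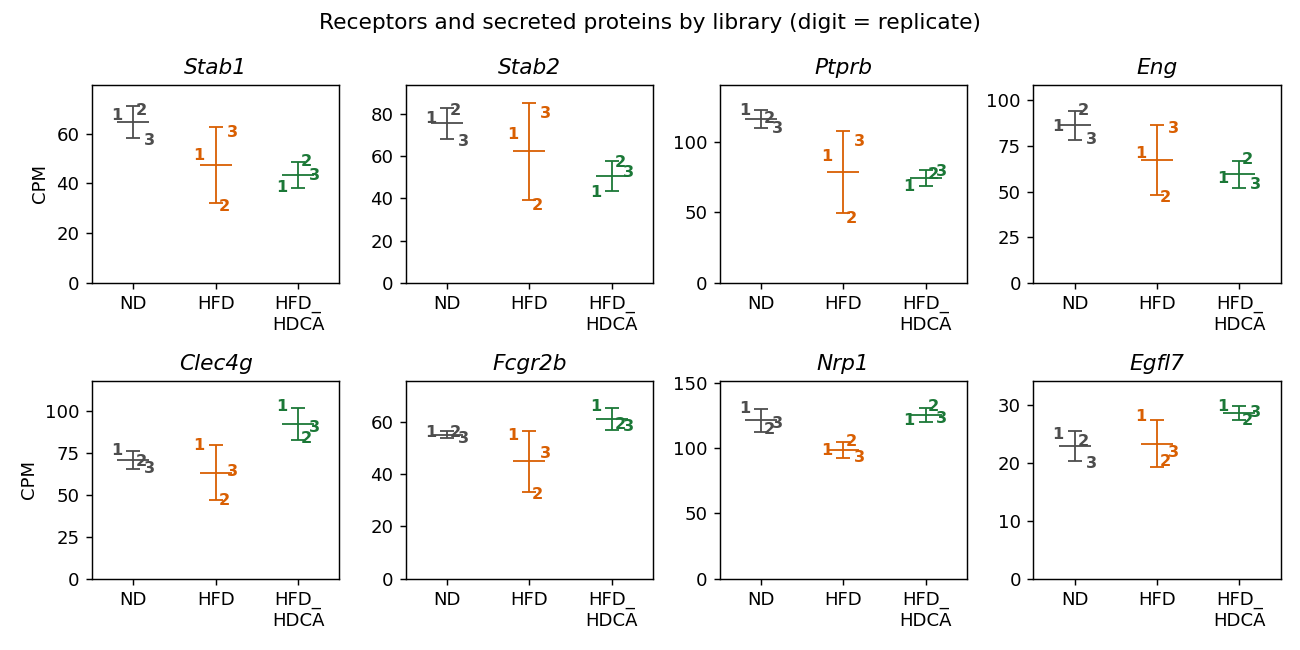
CPM of 8 members by diet group; each digit is the library of that replicate number, the long bar is the group mean and the error bar the SD (n = 3). HFD_HDCA lies below ND for Stab1, Stab2, Ptprb and Eng and above HFD for Clec4g, Fcgr2b and Nrp1, and HFD 2 is the lowest HFD library in 7 of the 8 panels.

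Among the VEGF receptors, Kdr, encoding VEGFR2, overlapped between all groups, at 62.9 ± 2.80 CPM in ND, 48.1 ± 20.7 in HFD and 54.9 ± 9.10 in HFD_HDCA (SD, n = 3 each). Flt1, encoding VEGFR1, stood at 12.9, 14.1 and 14.2 CPM in ND, 8.88, 6.87 and 16.0 in HFD, and 7.21, 10.1 and 8.84 in HFD_HDCA. HFD_HDCA lay below ND, at a log2 fold change of -0.65 ± 0.27 (adjusted p = 0.161, edgeR), while HFD reached from the lowest to the highest level. Flt4, encoding VEGFR3, overlapped between groups, with log2 fold changes of -0.50 ± 0.30 for HFD and -0.56 ± 0.30 for HFD_HDCA against ND (adjusted p = 0.593 and 0.266). Nrp1, the VEGF and semaphorin co-receptor neuropilin-1 (chromosome 8, 128359073 to 128505475), was lowest on HFD. It stood at 130.8, 114.5 and 118.6 CPM in ND, 97.9, 105.1 and 92.6 in HFD, and 121.6, 132.0 and 123.1 in HFD_HDCA. All HFD libraries lay below all others, HFD 2 was the highest of them, and ND and HFD_HDCA overlapped. The log2 fold change was -0.30 ± 0.10 for HFD against ND (adjusted p = 0.267, edgeR) and 0.35 ± 0.10 for HFD_HDCA against HFD (adjusted p = 0.0886), the smallest adjusted p of any member in any comparison. DESeq2 gave the second contrast an adjusted p of 0.0174.

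The TIE receptors and their phosphatase had lower mean levels on both high-fat diets than on ND. Tie1, an orphan receptor tyrosine kinase, stood at 20.7, 19.2 and 15.9 CPM in ND, 14.7, 10.7 and 14.8 in HFD, and 13.7, 14.3 and 13.6 in HFD_HDCA. All 6 libraries on high-fat diets lay below the lowest ND library, at log2 fold changes of -0.48 ± 0.15 and -0.43 ± 0.15 (adjusted p = 0.231 and 0.113, edgeR). Tek, the angiopoietin receptor TIE2, had HFD_HDCA below ND at -0.30 ± 0.14 (adjusted p = 0.196), with HFD overlapping. Ptprb, the phosphatase VE-PTP that restrains TIE2 (chromosome 10, 116301374 to 116389538), stood at 121.9, 116.5 and 109.1 CPM in ND, 89.6, 45.4 and 100.4 in HFD, and 68.1, 76.8 and 78.6 in HFD_HDCA. Both high-fat groups lay below ND, at -0.56 ± 0.24 for HFD (adjusted p = 0.393, edgeR) and -0.64 ± 0.24 for HFD_HDCA (adjusted p = 0.127). Ptprb was called in 3 of 19 alternative fits of HFD_HDCA against ND, with adjusted p from 0.0107 to 0.33. Eng, the TGF-beta family co-receptor endoglin, stood at 85.7, 94.3 and 78.7 CPM in ND, 70.8, 46.8 and 84.8 in HFD, and 57.0, 67.6 and 53.7 in HFD_HDCA. Only HFD_HDCA was separate from ND, at -0.54 ± 0.19 on the log2 scale (adjusted p = 0.115, edgeR). Gpr182, a chemokine-scavenging receptor, ranged from 24.1 to 25.9 CPM in ND, 13.0 to 26.7 in HFD and 18.6 to 21.1 in HFD_HDCA.

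**Figure D3:**
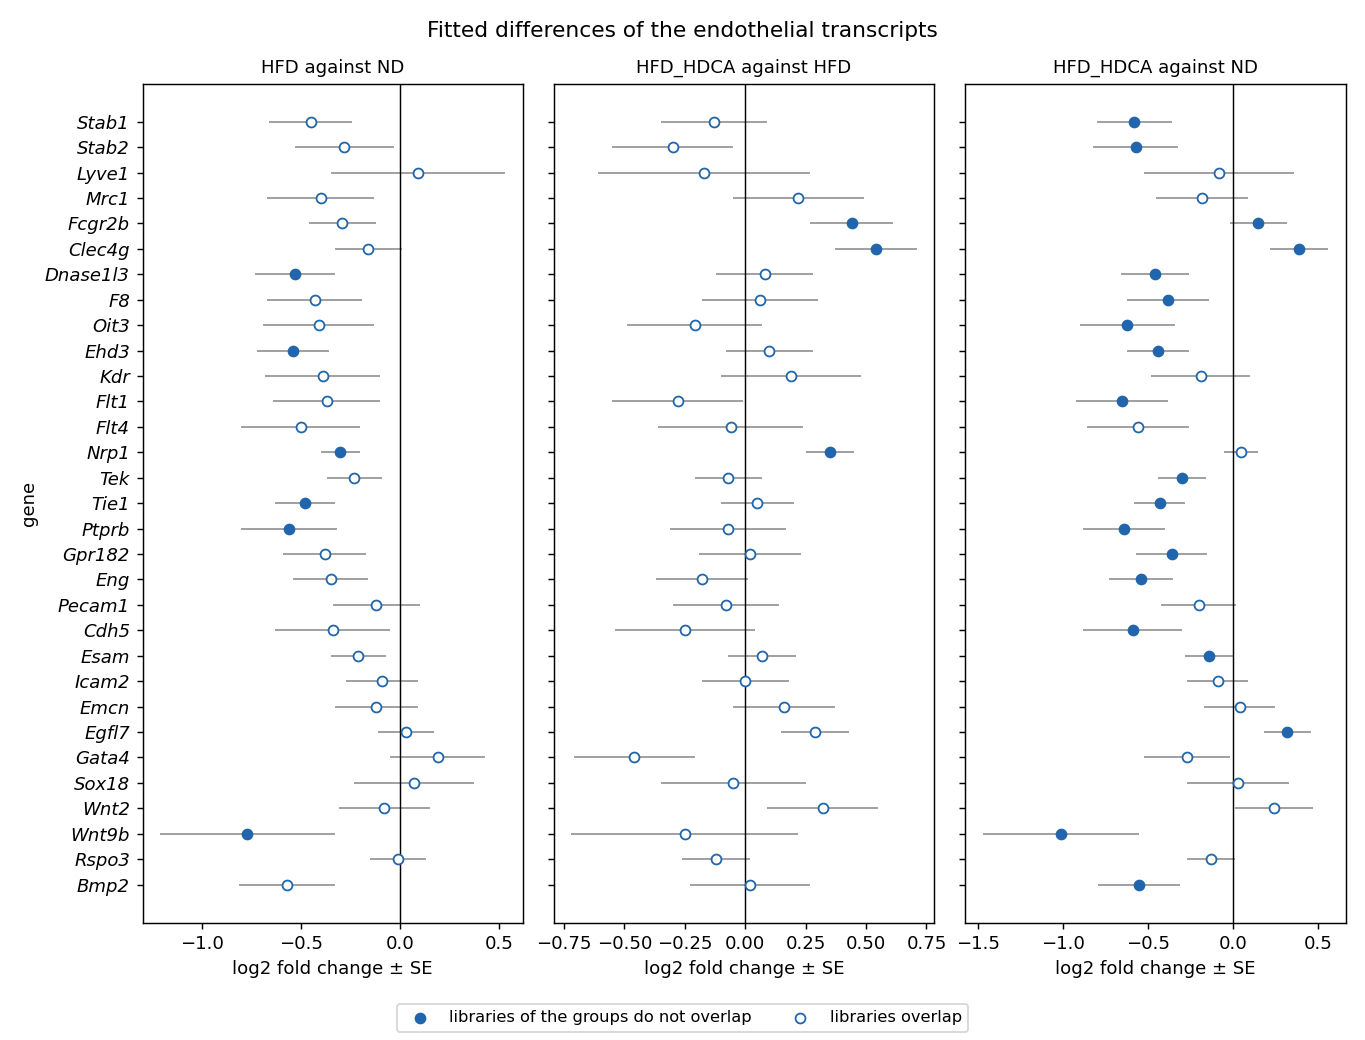
Log2 fold change with its SE for each member in the 3 comparisons, from edgeR's fit of all 9 libraries; filled points mark members whose libraries did not overlap between the groups, and the horizontal scale differs between panels. Most points lie left of 0 in both comparisons with ND and on both sides of it in HFD_HDCA against HFD.

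Of the junction and surface genes, Pecam1 and Icam2, adhesion molecules of all endothelium, overlapped in every comparison, with log2 fold changes between -0.20 and 0.00. Emcn, the sialomucin endomucin, was at 4.27 ± 0.780, 3.92 ± 0.805 and 4.39 ± 0.185 CPM in ND, HFD and HFD_HDCA (SD, n = 3 each). Cdh5, the adherens junction protein VE-cadherin, stood at 41.0, 41.6 and 37.5 CPM in ND, 27.9, 19.0 and 48.0 in HFD, and 28.0, 30.9 and 21.2 in HFD_HDCA. HFD_HDCA lay below ND, at -0.59 ± 0.29 on the log2 scale (adjusted p = 0.23, edgeR), and HFD covered the whole range. Esam, a tight junction immunoglobulin, was 13.0 to 14.1 CPM in ND and 11.9 to 12.6 in HFD_HDCA, separate but by a log2 fold change of -0.14 ± 0.14. Egfl7, a secreted matrix protein of endothelium, was higher with HDCA, at 24.9, 23.7 and 19.9 CPM in ND and 29.7, 27.2 and 28.7 in HFD_HDCA, with 27.9, 20.1 and 21.8 in HFD. Its log2 fold change against ND was 0.32 ± 0.14 (adjusted p = 0.176, edgeR). Of the transcription factors, Gata4, needed for the sinusoidal fate of liver endothelium, stood at 22.1, 21.9 and 18.9 CPM in ND, 14.6, 25.3 and 31.8 in HFD, and 15.3, 21.1 and 15.6 in HFD_HDCA. Sox18, a SOX factor of vascular development, ranged from 4.80 to 5.37, 3.25 to 8.28 and 4.36 to 5.96 CPM in the same order. For both factors HFD 1 was the lowest and HFD 3 the highest of all 9 libraries, and the groups overlapped.

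The 4 ligands had unlike patterns. Wnt2, the more abundant Wnt of the pair by FPKM (1.97 ± 0.419 in ND), stood at 5.67, 6.34 and 4.34 CPM in ND, 6.01, 4.65 and 4.84 in HFD, and 8.42, 5.11 and 5.78 in HFD_HDCA. All groups overlapped, and the highest library was HFD_HDCA 1. Without it the log2 fold change of HFD_HDCA against ND was -0.01, against 0.24 ± 0.23 with it. Rspo3, the R-spondin that amplifies Wnt signals, was the steadiest ligand, at 8.44 ± 0.823, 8.40 ± 0.760 and 7.71 ± 0.577 CPM (SD, n = 3 each). Wnt9b (chromosome 11, 103727363 to 103749821) stood at 2.13, 2.17 and 2.60 CPM in ND, 0.812, 1.87 and 1.35 in HFD, and 2.0, 0.930 and 0.481 in HFD_HDCA. Both high-fat groups lay below ND without overlap, and HFD_HDCA spread 4.15-fold between its lowest and highest library. These levels rest on 40 to 45 reads per ND library, 15 to 37 in HFD and 8 to 33 in HFD_HDCA. The log2 fold change of Wnt9b was -0.77 ± 0.44 on HFD and -1.01 ± 0.46 on HFD_HDCA (adjusted p = 0.571 and 0.19, edgeR). Bmp2, the inducer of hepcidin (chromosome 2, 133553199 to 133562885), stood at 27.1, 26.7 and 19.4 CPM in ND, 22.4, 10.2 and 16.9 in HFD, and 15.5, 17.2 and 17.3 in HFD_HDCA. HFD_HDCA lay below ND and HFD overlapped it, with log2 fold changes of -0.55 ± 0.24 and -0.57 ± 0.24 (adjusted p = 0.188 and 0.406).

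**Figure D4:**
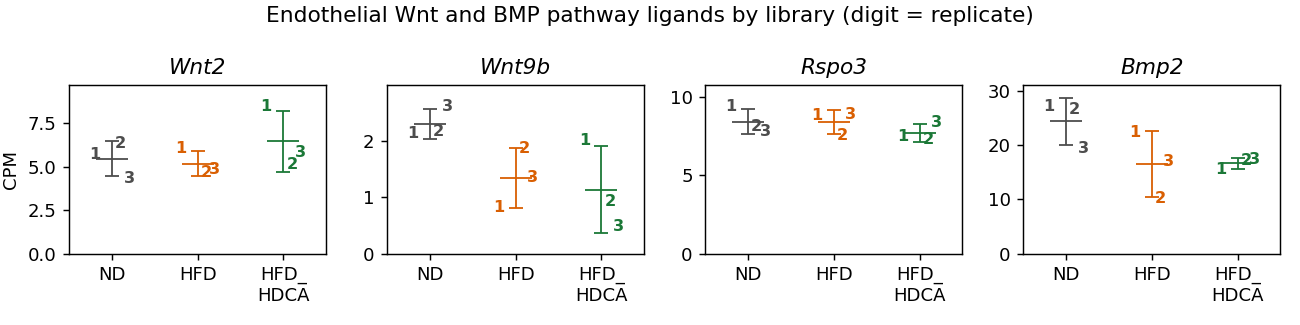
CPM of the 4 ligands by diet group; each digit is the library of that replicate number, the long bar is the group mean and the error bar the SD (n = 3). Wnt9b and Bmp2 lie lower in HFD_HDCA than in ND, while Wnt2 and Rspo3 overlap between all 3 groups.

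Set against endothelial RNA in the same library, the summed ligands overlapped between diets. Reads of the 4 ligands per 100 reads of 8 pan-endothelial members (Pecam1, Cdh5, Tie1, Tek, Eng, Egfl7, Icam2 and Esam) were 17.6 ± 1.14 in ND, 16.8 ± 3.12 in HFD and 17.6 ± 1.88 in HFD_HDCA (SD, n = 3 each). The two-sided exact permutation p was 0.8 for HFD against ND, 0.7 for HFD_HDCA against HFD and 1.0 for HFD_HDCA against ND, where 3 libraries against 3 cannot go below 0.1. Bmp2 gave 56.9 to 61.6% of the ligand reads in ND, 42.0 to 58.8% in HFD and 46.4 to 56.4% in HFD_HDCA. The same ratio for the other members, computed after their levels were seen, kept HFD_HDCA above both groups for Clec4g and Fcgr2b. Clec4g had 31.9, 29.1 and 31.2 reads per 100 pan-endothelial reads in ND, 40.8, 33.2 and 26.8 in HFD, and 57.3, 42.3 and 53.2 in HFD_HDCA. Fcgr2b had 23.5, 23.2 and 25.7 in ND, 28.3, 23.0 and 20.1 in HFD, and 36.9, 29.9 and 34.4 in HFD_HDCA. Of the 23 members outside the pan-endothelial set, 4 were lower in HFD_HDCA than in ND without overlap, Stab1, Stab2, Flt1 and Ptprb (2.93% of all genes on this ratio), and 5 were higher, Clec4g, Fcgr2b, Nrp1, Emcn and Sox18 (42.1%). In HFD against ND 4 were lower, Stab1, Ehd3, Ptprb and Dnase1l3 (1.28%), and 0 higher (15.8%), and in HFD_HDCA against HFD 3 were higher, Clec4g, Fcgr2b and Emcn (4.89%), and 0 lower (4.16%). The denominator itself, the summed pan-endothelial level, was 209.2 to 241.0 CPM in ND, 140.1 to 238.5 in HFD and 170.0 to 197.3 in HFD_HDCA, and Nrp1, Emcn and Sox18 overlapped between ND and HFD_HDCA in CPM. These single-member ratios were not adjusted for their number, and each exact permutation p without overlap was 0.1, the smallest possible.

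Of 17 pericentral hepatocyte genes that endothelial Wnts act on, 5 fell in HFD_HDCA against HFD and 0 rose, against 3.40% of all genes called. The 5 were Cyp1a2, Gulo, Nkd1, Rgn and Rnf43. The median log2 fold change of the 17 was -0.71, against 0.00 over all genes. Of the 17 values 15 were negative and 2 positive, Cyp2e1 at 0.23 and Tbx3 at 0.15. Nkd1, a feedback inhibitor of Wnt signalling, stood at 10.9, 10.1 and 9.95 CPM in HFD and 4.91, 5.52 and 4.75 in HFD_HDCA, a difference of -1.03 ± 0.18 on the log2 scale (adjusted p = 0.0152, edgeR). ND, at 8.64, 6.29 and 5.67 CPM, lay between them. Rnf43, a ligase that removes Wnt receptors, was 30.3 ± 2.85 CPM in HFD and fell to 17.9 ± 2.88 in HFD_HDCA (adjusted p = 0.0311). ND, at 21.1 ± 3.64 CPM, overlapped HFD_HDCA for this gene. Glul, glutamine synthetase of the cells around the central vein, was 1272 ± 293 CPM in HFD and 776 ± 83.4 in HFD_HDCA (adjusted p = 0.0548), Lgr5, the R-spondin receptor, 10.2 ± 1.31 and 5.58 ± 2.13 (adjusted p = 0.12), and Axin2 13.4 ± 3.33 and 11.6 ± 4.56 (adjusted p = 0.701). Against ND, HFD_HDCA had 2 lower targets, Cyp1a2 and Rhbg (6.47% of all genes called), and HFD had 1, Cyp1a2 (0.953%), with 0 called higher in either. At an unadjusted p under 0.05 by edgeR, HFD against ND had 4 higher targets, Lect2, Rnf43, Nkd1 and Axin2 (6.67% of all genes). By that limit 1 was lower (4.83%). HFD_HDCA against ND had 0 higher (14.8%) and 8 lower (11.4%). Among 21 Wnt receptors and feedback genes, Fzd1 rose on HFD against ND (adjusted p = 0.0333, edgeR), against 0.953% of all genes called. Fzd4 rose on HFD_HDCA against ND (adjusted p = 0.0393, edgeR), against 6.47%, and Nkd1 and Rnf43 fell in HFD_HDCA against HFD, against 3.40%. In HFD_HDCA against HFD the call held in 17 of 19 alternatives for Nkd1, in 11 for Rnf43 and Cyp1a2, in 9 for Rgn and in 8 for Gulo, and only that of Nkd1 held without each ND and each HFD library. For Nkd1 the call was lost without HFD_HDCA 3. For Rnf43 it was lost without HFD 2, HFD 3, HFD_HDCA 1 or HFD_HDCA 2. For Cyp1a2, Gulo and Rgn it was lost without any 1 ND library, HFD 2 or HFD_HDCA 3, for Cyp1a2 also without HFD 1, for Gulo and Rgn also without HFD 3 or HFD_HDCA 2, and for Gulo also without HFD_HDCA 1. The calls of Cyp1a2 and Fzd1 in HFD against ND were lost without any 1 ND library, HFD 2 or HFD 3, that of Fzd1 also without HFD 1 or HFD_HDCA 2, and Fzd1 held in 10 of 19 alternatives (adjusted p up to 0.163). In HFD_HDCA against ND, Cyp1a2 held in all 19, Rhbg in 14 and Fzd4 in 7 (adjusted p up to 0.147), the last 2 lost without any 1 ND library, HFD_HDCA 2 or HFD_HDCA 3, and Fzd4 also without HFD 2 or HFD 3. Both lists share Nkd1, Rnf43, Lgr5, Axin2 and Znrf3, and no test tied their levels to those of the ligands.

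On the BMP side, 2 of 21 pathway genes rose on HFD against ND, Id2 and the second hepcidin gene Hamp2, and 0 fell. Over all genes 0.953% were called there. At an unadjusted p under 0.05 by edgeR, 5 of the 21 were higher and 3 lower (6.67 and 4.83% of all genes). Among the lower were Atoh8, at -0.69 ± 0.16 on the log2 scale (adjusted p = 0.086), and Smad9, at -1.58 ± 0.36 (adjusted p = 0.0923). In HFD_HDCA against ND 5 were higher and 4 lower by that limit (14.8 and 11.4%). Id2, a BMP-responsive inhibitor of differentiation, stood at 77.3, 74.4 and 87.6 CPM in ND, 146.5, 195.2 and 162.1 in HFD, and 158.0, 245.1 and 237.1 in HFD_HDCA. It rose in both comparisons with ND, by 1.07 ± 0.18 and 1.42 ± 0.18 on the log2 scale (adjusted p = 0.0232 and 0.00266, edgeR). Id1, the usual readout of BMP signalling, rose in HFD_HDCA against ND, from 3.49, 4.50 and 3.24 to 7.27, 17.5 and 12.9 CPM, by 1.74 ± 0.37 (adjusted p = 0.0244). The calls of Id2 and Hamp2 in HFD against ND were lost without any 1 ND library, HFD 2 or HFD 3, that of Hamp2 also without HFD_HDCA 2, and Hamp2 held in 10 of 19 alternatives (adjusted p up to 0.18). In HFD_HDCA against ND, Id2 held in all 19 and Id1 in 15, lost without any 1 ND library or HFD_HDCA 3. Hamp, encoding hepcidin, was at 455.7 ± 132.9, 310.4 ± 111.1 and 219.5 ± 51.3 CPM in ND, HFD and HFD_HDCA (SD, n = 3 each). Its log2 fold change was -1.05 ± 0.29 for HFD_HDCA against ND (adjusted p = 0.0632). Bmp6, the other endothelial hepcidin inducer, stood at 6.19, 6.67 and 4.28 CPM in ND, 4.39, 2.47 and 4.17 in HFD, and 3.94, 4.24 and 3.97 in HFD_HDCA, so that HFD_HDCA lay just below ND (adjusted p = 0.23). Acvr1, a BMP type I receptor, fell in HFD_HDCA against HFD (adjusted p = 0.0461), with levels of 15.3 ± 0.854 CPM in HFD and 10.7 ± 0.710 in HFD_HDCA, a call that held in 4 of 19 alternatives (adjusted p up to 0.133) and was lost without any 1 of the 9 libraries. Of 15 tested ligands of the VEGF, angiopoietin and TGF-beta families, Bmp6 included, edgeR called 0 in each comparison. Over all genes 0.953, 3.40 and 6.47% were called in HFD against ND, HFD_HDCA against HFD and HFD_HDCA against ND. In that order 0, 0 and 0 ligands were higher (6.67, 11.6 and 14.8% of all genes) at an unadjusted p under 0.05. By the same limit 1, 2 and 1 were lower (4.83, 10.4 and 11.4%). Vegfa was at 127.9 ± 20.8, 137.4 ± 29.0 and 134.5 ± 18.5 CPM, and Angpt1 at 1.17 ± 0.354, 1.47 ± 0.384 and 0.916 ± 0.256.

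Other endothelial genes outside the 31 members were counted beside them. Of 34 tested genes of this kind, 0 were called in HFD against ND (0.953% of all genes) and in HFD_HDCA against HFD (3.40%). In HFD_HDCA against ND 1 fell (6.47% called), Ltbp4, a TGF-beta binding matrix protein (adjusted p = 0.0255, edgeR). Its levels were 57.6 ± 2.38 CPM in ND and 35.3 ± 5.46 in HFD_HDCA. That call held in 13 of 19 alternatives and was lost without any 1 ND library, HFD_HDCA 1 or HFD_HDCA 3. Their median log2 fold changes were -0.14, 0.06 and -0.12 in the order HFD against ND, HFD_HDCA against HFD and HFD_HDCA against ND. The 8 pan-endothelial members alone had medians of -0.22, -0.04 and -0.25. Of 16 tested genes of continuous and large-vessel endothelium 0 were called in each comparison, against the same shares of all genes. Their medians were 0.03, -0.25 and -0.25. At an unadjusted p under 0.05 by edgeR, 4 were lower in HFD_HDCA against ND, Cdh13, Thbd, Plvap and Kit (11.4% of all genes). By that limit 0 were higher (14.8%). In HFD_HDCA against HFD 3 were lower (10.4%) and 0 higher (11.6%), and in HFD against ND 1 was lower (4.83%) and 1 higher (6.67%). Cd34 ranged from 1.57 to 1.97 CPM in ND, 1.19 to 5.25 in HFD and 1.05 to 4.60 in HFD_HDCA, and Vwf, von Willebrand factor, from 5.21 to 7.13, 4.50 to 10.8 and 3.89 to 7.45. In HFD 2, where most sinusoidal members were lowest, this list was mixed. Cd34 and Vwf were at their highest there, as was Cav1 at 9.85 CPM. Kit, Dll4, Efnb2 and Gja4 were at their lowest there, at 4.60, 3.03, 2.32 and 2.37 CPM.

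Longer transcripts had the lower values among the members in both comparisons with ND. Across the 31 genes, Spearman's correlation of the longest transcript (GENCODE vM21) with the log2 fold change was -0.68 for HFD against ND, -0.26 for HFD_HDCA against HFD and -0.68 for HFD_HDCA against ND. Across 12465 tested genes with a length it was -0.07, -0.32 and -0.34. These correlations run over genes that share libraries, which are not independent replicates, and the relation was looked for after the values were seen. The 22 members of 3000 bases or more had median log2 fold changes against ND of -0.38 on HFD and -0.43 on HFD_HDCA, against 0.01 and -0.08 over all genes of that length. The 9 shorter members, Lyve1, Clec4g, Egfl7, Oit3, Emcn, Wnt2, Icam2, Esam and Sox18, had medians of -0.09 and 0.03, against 0.03 and 0.14. Ptprb, Stab1, Stab2 and F8 have transcripts of 11911, 7999, 8228 and 9784 bases, and Clec4g and Egfl7 of 1441 and 1391. By library, the correlation of length with the log2 difference from the ND mean was -0.37, -0.66 and -0.30 in HFD 1 to 3 and -0.53, -0.63 and -0.66 in HFD_HDCA 1 to 3. Over all genes with a length the values were -0.15, -0.09 and 0.08 in HFD 1 to 3 and -0.42, -0.11 and -0.27 in HFD_HDCA 1 to 3. The part of transcript length in these differences was not tested.

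**Figure D5:**
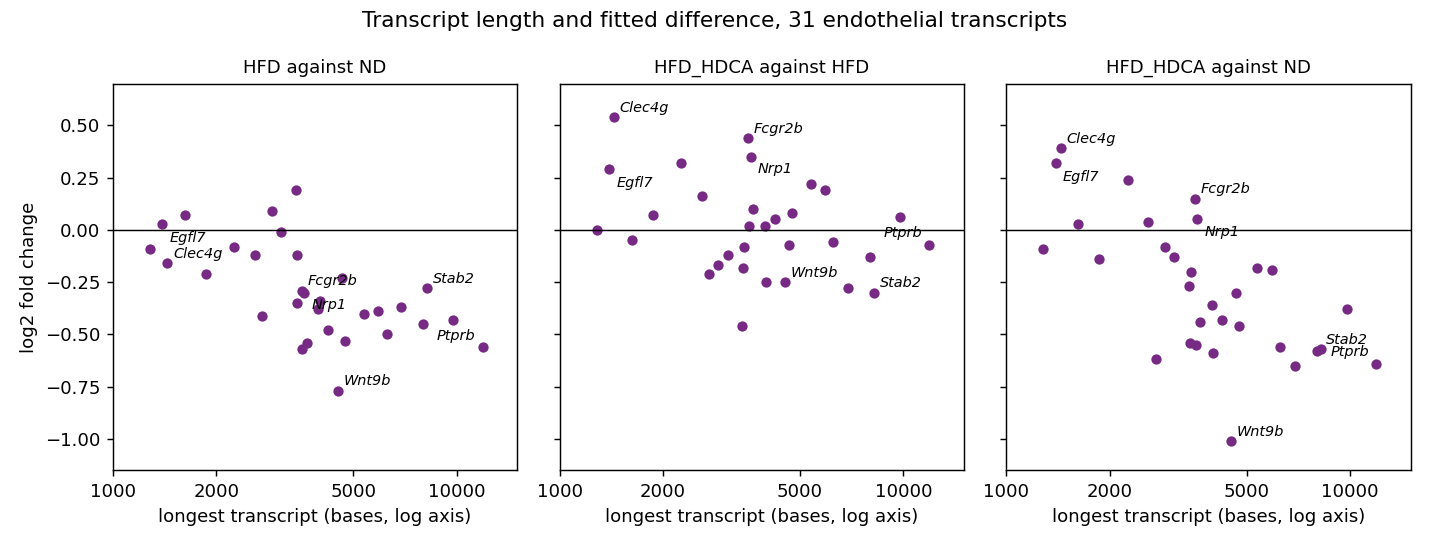
Log2 fold change of each member against the length of its longest transcript in bases, on a log axis, in the 3 comparisons; each point is a gene. Points fall with length in both comparisons with ND, and Clec4g and Egfl7 are among the shortest transcripts.

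Some members share exon sequence with neighbouring annotated genes. In GENCODE vM21, exons of Clec4g, Eng, Fcgr2b, Gpr182, Rspo3, Stab1 and Stab2 overlap a gene on the opposite strand, such as Fpgs for Eng, Zbtb39 for Gpr182 and Nt5dc2 for Stab1. Egfl7 and Nrp1 overlap a gene on the same strand, Gm20532 and the microRNA gene Mir1903. The deposited counts carry the word antisense in their names, with no meaning given. How the counting used strand and handled such overlaps is not given in the sources used here, so the levels of these 9 genes are uncertain to that extent.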

How the data were processed

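Gene expression was measured by bulk RNA sequencing in 9 libraries of mouse liver, 3 per diet, and groups came from the sample titles. Per the labels, libraries were made with a TruSeq RNA kit. The authors deposited HTSeq tables of whole-number read counts per gene, used as raw counts, and Cufflinks tables of FPKM per the file headers. The build mm10 and the tools Cufflinks 2.0.2 and TopHat 1.3.2 are listed in the submitters' processing notes with no role given. The HTSeq version, annotation and strand setting are not given in the sources used here. Reads assigned to no gene, 27.9 to 36.1% of a file, were left out.

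Counts were fitted with edgeR 4.0.16 in R 4.3.3, with TMM scaling, filterByExpr (minimum count 10) and robust quasi-likelihood F tests over all 9 libraries. Benjamini-Hochberg adjustment ran over the 12587 genes tested, and an adjusted p under 0.05 was a call. Standard errors are those implied by the F statistic. The method was tested on simulated data. Alternatives used DESeq2 1.42.0, limma 3.58.1 on log2(FPKM + 0.1) or log2(FPKM + 1), other scaling factors, no filter on low counts, fewer libraries and a replicate block. Deposited starts count from 0 and were raised by 1.

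All 31 members are named. From other lists, genes past the threshold in any comparison are named, otherwise up to 4 with the smallest p (often none here), with 10 further genes such as Bmp6, Hamp and Glul. Some genes outside this rule, such as Cav1, Dll4, Efnb2, Acta2 and Marco, were chosen after their values were seen. Members, lists and comparisons were chosen with earlier results of these data known. Replicate libraries of a group differed by more than counting noise, with chi-square per degree of freedom from 11.6 to 96.3.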

Additional observations from a re-analysis of the deposited data

How the results depend on the processing

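Across 19 alternative settings (18 planned and 1, without HFD 2 and HFD_HDCA 1 together, added after the data were seen), the members kept the sign of their log2 fold change in 26 to 31 of 31 cases per setting for HFD against ND, 20 to 31 for HFD_HDCA against HFD and 29 to 31 for HFD_HDCA against ND. Over all settings together 21, 9 and 27 of the 31 members kept it. No member was called in HFD against ND under any of these settings, against 0.250% (without ND 3) to 4.54% (without HFD 1 and HFD_HDCA 1) of all genes. In HFD_HDCA against HFD, 1 member was called with DESeq2 (Nrp1, 8.55% of all genes) and 1 without HFD 1 and HFD_HDCA 1 (Clec4g, 7.70%). Leaving out a library gave 0 to 2, the 2 being Clec4g and Gata4 without HFD 1 (5.26%). In HFD_HDCA against ND, 7 were called lower when only those groups were fitted (3.85% of all genes called lower). Without HFD 1 and HFD_HDCA 1 there was 1, Wnt9b (4.29% lower). Without HFD 2 and HFD_HDCA 1 there were 4, Wnt9b, Ptprb, Dnase1l3 and F8 (2.91% lower). Leaving out a library gave 0 to 5, with 5 without HFD 2 (2.88% of all genes lower) and 1, Flt1, without HFD 3 (2.59% lower). From FPKM with the smaller pseudocount the median of all genes was 0.11, -0.11 and 0.01 in the order HFD against ND, HFD_HDCA against HFD and HFD_HDCA against ND, against member medians of -0.28, -0.07 and -0.30. The cause of these differences was not tested.

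Sign changes are given for the ligands and for members with an unadjusted p under 0.05, a limit set after the values were seen. Rspo3 in HFD against ND, -0.01 as reported, was 0.02 with upper-quartile factors, 0.07 without HFD 2 and HFD_HDCA 1, 0.12 and 0.09 from FPKM with the smaller and larger pseudocount, and -0.06 to 0.07 without a library. Wnt2 was 0.04 and 0.03 from FPKM and -0.22 to 0.04 without a library. In HFD_HDCA against HFD, Bmp2 was -0.19 without HFD 2 and HFD_HDCA 1, -0.06 and -0.06 from FPKM and -0.24 to 0.30 without a library, and Wnt9b was -0.91 to 0.11 without a library. In HFD_HDCA against ND, Wnt2 was -0.01 without HFD 1 and HFD_HDCA 1, -0.01 without HFD 2 and HFD_HDCA 1, and -0.01 to 0.38 without a library. The difference in ligand reads per 100 pan-endothelial reads was -0.00104 in HFD_HDCA against HFD and -1.34 in HFD_HDCA against ND from summed FPKM. Without a library it ran from -2.27 to 0.812, -0.794 to 2.29 and -0.617 to 1.11 in HFD against ND, HFD_HDCA against HFD and HFD_HDCA against ND.

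The replicate numbers gave no sign of pairing the libraries. Deviations of same-numbered libraries correlated at -0.101 to 0.134 and those of other pairs at -0.133 to 0.132. With 3 libraries a group, centred on their own mean, such values cannot exclude a shared cage, litter or day. With the replicate number as a block, 0 members were called in each comparison and the medians were -0.36, 0.01 and -0.30. Depth limits Wnt9b most, with 8 reads in its lowest library.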
